A study of Homo sapiens with 12 samples.

Results

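The 14-3-3 proteins are a family of dimeric adaptors that bind partner proteins at phosphorylated serines and threonines, and 7 genes encode them in human cells: YWHAB (β), YWHAE (ε), YWHAG (γ), YWHAH (η), YWHAQ (θ), YWHAZ (ζ) and SFN (σ, also called stratifin). All 7 were found among the 34687 gene rows of the expression table and are described here across its 12 columns. The family was selected on the YWHAE signal, which was lower in each of the 8 comparisons of a drug with vehicle, so the YWHAE values in those comparisons are given as a description and support nothing by themselves.

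RNA of 2 human lines was hybridised to Illumina HT-12 bead arrays: HCT116, an epithelial line from a colon carcinoma, and PANC1, a line from a pancreatic ductal adenocarcinoma. Cells received 0.05% DMSO alone as vehicle, 10 μM ICG-001, which blocks the interaction of the coactivator CBP with β-catenin, or 10 μM C646, which inhibits the acetyltransferase activity of CBP and its paralogue p300. Exposure lasted 12 h or 96 h. This made 12 groups, each deposited as 1 column in which the authors had averaged 2 arrays (3 for the 12 h ICG-001 group of PANC1). According to the study's methods, cells of the longer exposure were seeded more sparsely, passaged, and given fresh medium and drug every day, so exposure time and handling cannot be told apart. No genotype was altered, and each cancer type is represented by 1 line.

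Once bound, a 14-3-3 dimer can hold its partner in the cytoplasm, mask a site, or keep an enzyme in an active or inactive shape. Known partners include the CDC25 phosphatases, the death promoter BAD, FOXO transcription factors and the Hippo effector YAP1, so the family touches the cell cycle, survival and the control of growth. SFN stands somewhat apart: it is largely an epithelial gene, prefers to pair with itself, and is known for holding cells before mitosis.

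Arrays within a column were already averaged by the authors, so no column carries an error. No test was run, since a single comparison sets 1 column against 1, and a difference is called here when it reaches 1.5-fold, which is a rule of size and not of significance. Background was left in the signal, which makes folds of dim genes too small. A detection limit was set per column above the peak formed by unexpressed genes, giving limits of 135 to 144 signal units, and 15384 to 16656 genes exceeded it. All 7 genes exceeded it in all 12 columns, the lowest value being 2.95 times its limit. Signals were compared within a line and between columns of the same gene only. In the comparisons with DMSO, genes below the limit in all 6 columns of the line varied with an SD of 0.066 to 0.072 on the log2 scale. The median absolute log2 change of genes above it in at least 1 of the 2 columns was 0.11 to 0.17 there. These figures describe the table and do not replace the spread between cultures.

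Cell markers partly matched the lines. EPCAM, CDH1, CDX2, KRT8 and KRT18 exceeded the limit in all 6 HCT116 columns, whereas the intestinal markers CDX1, LGALS4 and VIL1 exceeded it in none and KRT20 in 1. Of the 7 PANC1 markers, 6 exceeded the limit in all 6 PANC1 columns, among them the mesenchymal filament gene VIM at 14637 to 18144, and ZEB1 did so in 5. The lists overlap between the lines: the 5 HCT116 markers named first also exceeded the limit in all 6 PANC1 columns, 5 of the 7 PANC1 markers did so in all 6 HCT116 columns, and LGALS4 did so in 5 PANC1 columns. Of 8 markers of blood, vessel and fibroblast cells, COL1A1 alone exceeded the limit in all 12 columns, COL3A1 did so in 5 PANC1 columns, and PTPRC, CD3E, PECAM1, CDH5 and PDGFRB did so in none. The summed signal of those 8 was 1060 to 1098 in HCT116 and 1019 to 1276 in PANC1. In bulk RNA such as this, fewer cells expressing a gene and less RNA per cell cannot be told apart.

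The promoters of YWHAE and SFN are printed because these genes carried nearly all of the calls below, and that of YWHAH because it was the sole other member with a call. Each is the 250 bases before the annotated start (RefSeq, GRCh38.p14), read 5′ to 3′ on the gene's strand. YWHAE lies at chr17:1400223-1400472 on the minus strand, YWHAH at chr22:31944285-31944534 on the plus strand and SFN at chr1:26862899-26863148 on the plus strand. Capitals mark matches on either strand to 6 motifs that were chosen after the promoters had been seen.
YWHAE: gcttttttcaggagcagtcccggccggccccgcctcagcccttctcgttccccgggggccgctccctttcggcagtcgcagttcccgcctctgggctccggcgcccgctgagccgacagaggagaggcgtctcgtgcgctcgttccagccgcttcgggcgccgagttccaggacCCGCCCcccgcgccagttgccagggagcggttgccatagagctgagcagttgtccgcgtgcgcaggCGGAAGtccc
YWHAH: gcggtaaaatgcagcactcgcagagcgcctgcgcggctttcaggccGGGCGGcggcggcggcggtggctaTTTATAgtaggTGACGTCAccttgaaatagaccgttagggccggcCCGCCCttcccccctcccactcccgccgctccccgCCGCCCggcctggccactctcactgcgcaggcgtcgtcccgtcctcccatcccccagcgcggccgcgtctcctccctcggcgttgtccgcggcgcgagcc
SFN: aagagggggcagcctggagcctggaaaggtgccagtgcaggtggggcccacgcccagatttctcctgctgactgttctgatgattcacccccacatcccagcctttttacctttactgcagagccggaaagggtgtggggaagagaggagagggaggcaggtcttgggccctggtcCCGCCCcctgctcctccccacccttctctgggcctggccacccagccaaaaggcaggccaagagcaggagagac

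The motifs were searched in these windows of 6 family members and of 35116 RefSeq promoters. The GC box GGGCGG was in 6 of 6 and in 42.6% of all promoters. The ETS core CGGAAG was in 4 of the 6, YWHAE included, and in 16.5% of all. The CREB site TGACGTCA was in YWHAH alone of the 6, as was the TATA box TATAAA, against 1.65% and 10.7% of all promoters. CCAAT was in 2 of the 6, YWHAB and YWHAQ, and in 32% of all. The TCF/LEF core CTTTGA, a sequence bound by the partners of β-catenin, was in 0 of the 6 and in 11.2% of all. These matches describe the letters only, and no binding was measured. The SFN window held 62.8% G and C and 3 CpG dinucleotides, against 71.2% and 29 for YWHAE and 72% and 34 for YWHAH. The median window of all promoters held 58% G and C.

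YWHAE, which encodes 14-3-3ε, had a signal of 1247 in HCT116 with DMSO at 12 h and of 1234 at 96 h. With ICG-001 the HCT116 signals were 644 at 12 h and 594 at 96 h, and with C646 they were 747 and 681. All 4 drug columns of HCT116 thus lay below both DMSO columns, which is a description, since YWHAE was selected on these columns. Neighbours among the 4 were less than 1.2-fold apart and are not ordered here. In PANC1 the signal was 1751 with DMSO at 12 h and 862 at 96 h, 867 and 399.6 under ICG-001, whereas C646 gave 607 and 509. Here the groups met, because DMSO at 96 h and ICG-001 at 12 h had nearly the same signal, less than 1.2-fold apart, as did the pair of C646 columns. The lowest of the 6 PANC1 columns was ICG-001 at 96 h, and the highest column exceeded it 4.38-fold, compared with a 2.10-fold span in HCT116.

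**Figure D1:**
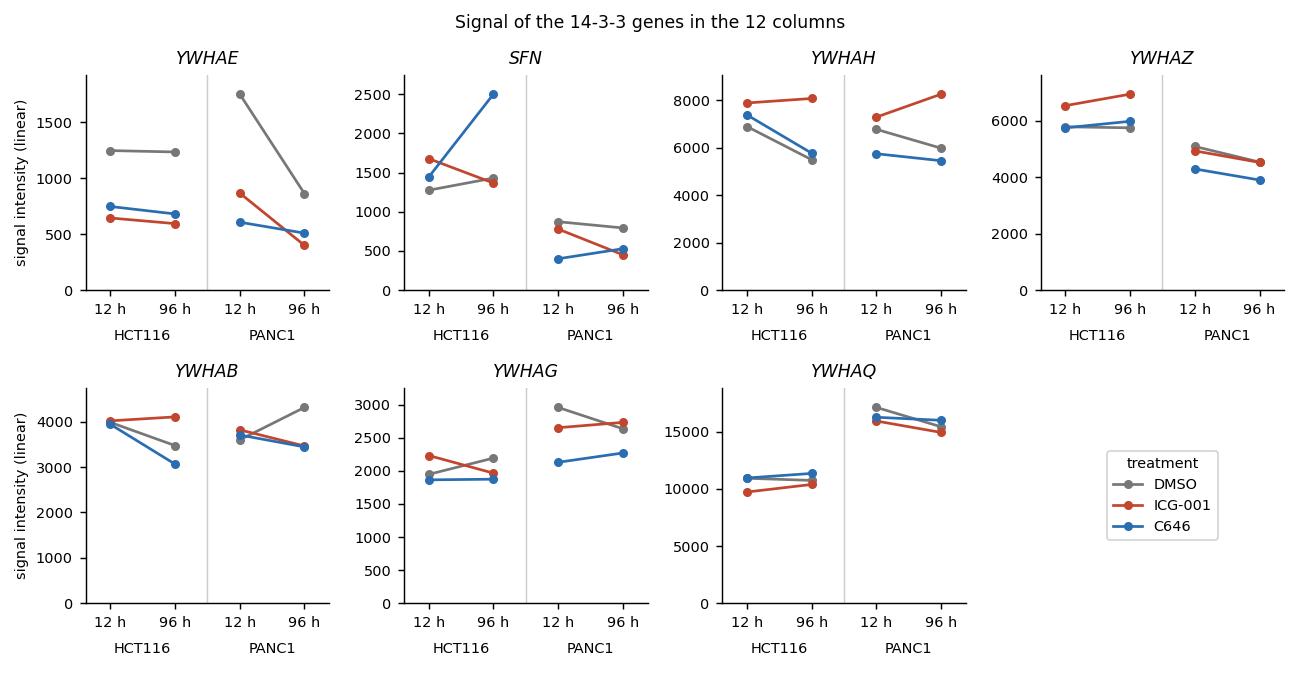
Signal intensity on a linear axis from 0 for each 14-3-3 gene, with 1 point per column, lines joining 12 h and 96 h of a treatment, and cell lines side by side; a point is the authors' mean and has no error bar. YWHAE was lower with either drug than with DMSO at the same time in both lines, while the PANC1 DMSO signal itself went from 1751 to 862.

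Against DMSO of the same line and time, YWHAE in HCT116 was lower by 1.94-fold with ICG-001 at 12 h and 2.08-fold at 96 h, and by 1.67-fold with C646 at 12 h and 1.81-fold at 96 h. In PANC1 it was lower by 2.02-fold with ICG-001 at 12 h and 2.16-fold at 96 h, and by 2.89-fold with C646 at 12 h and 1.69-fold at 96 h. Each DMSO column served both drugs, so these are not 8 separate observations. Counted over all genes in either direction, 1.5-fold differences made up 8.95% (12 h) and 10.2% (96 h) of those tested for ICG-001 in HCT116, and the C646 shares were 4.09% and 3.12%. The PANC1 shares were 2.49% and 7.38% for ICG-001, then 6.64% and 3.99% for C646. Because YWHAE was picked for these values, nothing is read from that background. YWHAE ranked from 1 of 17438 genes, counting from the most lowered (PANC1, ICG-001, 12 h), to 157 of 17147 (HCT116, ICG-001, 96 h).

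The selection has an edge at 1.5-fold. Of 13591 genes tested in all 8 comparisons, 4 were lower at least 1.5-fold in each, which is 0.0294%. YWHAE had the greatest smallest difference of the 4, a log2 change of -0.74. The others were LOC644936, CNOT3 (a subunit of the deadenylase complex CCR4-NOT) and H2AFX (now H2AX, the histone variant phosphorylated at DNA breaks), whose smallest differences were log2 changes of -0.69, -0.60 and -0.59. Just outside lay LOC646966 at -0.56, PKM2 (now PKM, pyruvate kinase) at -0.54 and PPP1R10, a nuclear regulator of protein phosphatase 1, at -0.53.

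SFN encodes the σ member. In HCT116 its signal was 1274 with DMSO at 12 h and 1429 at 96 h, 1677 and 1366 under ICG-001, whereas C646 gave 1443 and 2500.2. One column stood out, C646 at 96 h, while the other 5 lay between 1274 and 1677. In PANC1 the signal was 872 and 793 with DMSO, 779 and 451 under ICG-001, whereas C646 gave 399.6 and 528. All 4 PANC1 drug columns were below both DMSO columns, but the column of ICG-001 at 12 h was less than 1.2-fold below them. The share of all genes that separated in this way was not counted.

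Relative to DMSO, SFN was 1.75-fold higher in HCT116 with C646 at 96 h, and its log2 changes in the other HCT116 comparisons were 0.40 (12 h) and -0.07 (96 h) for ICG-001 and 0.18 for C646 at 12 h. In PANC1 it was lower by 1.76-fold with ICG-001 at 96 h, 2.18-fold with C646 at 12 h and, at the edge of the threshold with a log2 change of -0.59, with C646 at 96 h. The PANC1 log2 change with ICG-001 at 12 h was -0.16. The call for C646 at 96 h was lost, at -0.58, after centring and after quantile normalization over all 12 columns. In the PANC1 comparison with ICG-001 at 96 h, the epithelial markers were mixed. KRT19 had a log2 change of -1.17, KRT8 of -1.06, EPCAM of -0.78, KRT18 of -0.53 and CDH1 of -0.49. MUC1 was called higher at 0.79, and KRT7 and CDX2 had 0.21 and 0.04. Of the PANC1 marker list, 1 of 7 genes was called higher there and 2 lower. Of the HCT116 marker list, 2 of 6 tested genes were called lower there, with a median of -0.51, against medians of 0.06 and -0.02 with C646 at 12 h and 96 h in PANC1, where none was called. Over all PANC1 columns that list summed to 4603 to 9705 signal units. The part of these markers in the SFN values was not tested. Whether the SFN response differed between the lines was not tested, since no column has an error.

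**Figure D2:**
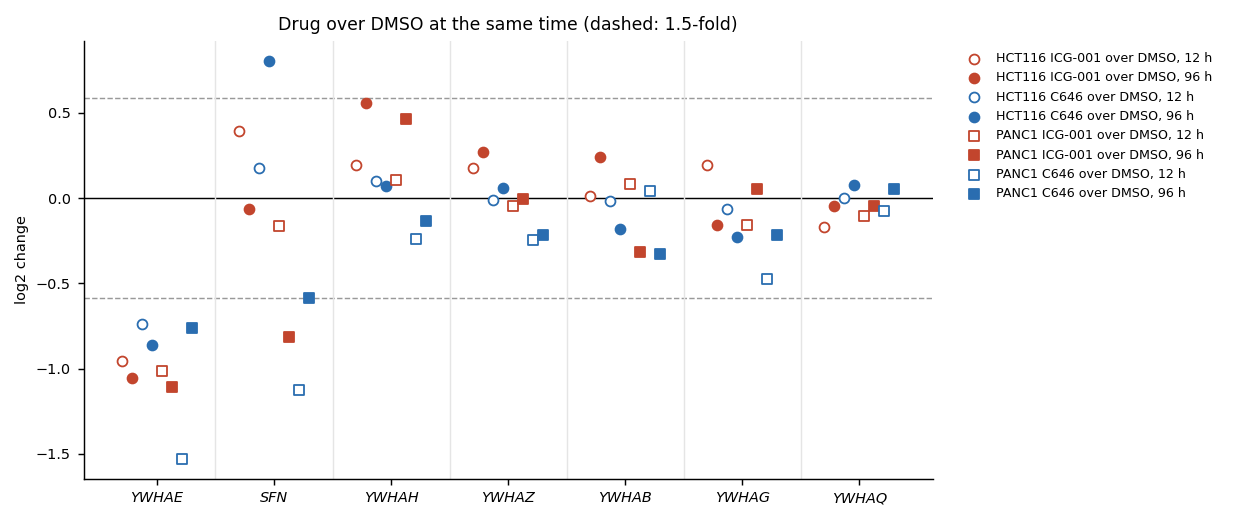
Log2 change of each 14-3-3 gene with a drug over DMSO of the same line and time, with open points for 12 h, filled points for 96 h, circles for HCT116 and squares for PANC1; dashed lines mark 1.5-fold, and no error is known. The 8 YWHAE points lie between -1.53 and -0.74, SFN lies on both sides of 0, and the other 5 genes stay between -0.47 and 0.56.

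The other 5 genes had no call against DMSO in 40 pairs of gene and comparison, with log2 changes from -0.47 to 0.56 and a median of -0.01. Over all 7 genes and 8 comparisons, 56 pairs in total, 11 were lower (8 of YWHAE and 3 of SFN, or 2 of SFN after centring) and 1 was higher (SFN). Over all genes and the same comparisons, 2.47% of pairs were lower and 3.4% higher. Without YWHAE, which the rule used, 4 of 48 pairs were called, all of them SFN.

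YWHAH encodes 14-3-3η, best known from the brain. Its HCT116 signal was 6884 with DMSO at 12 h and 5486 at 96 h, 7879 and 8068 under ICG-001, and 7372 and 5761 for cells given C646. In PANC1 the signals were 6767 and 5974 with DMSO, 7285 and 8250.4 under ICG-001, and 5740.2 and 5446 for cells given C646. Both ICG-001 columns were above both DMSO columns in each line, and the share of all genes that did so was not counted. The excess over DMSO was under the threshold, with log2 changes at 12 h of 0.19 in HCT116 and 0.11 in PANC1, and at 96 h of 0.56 and 0.47. For C646 the HCT116 log2 changes were 0.10 and 0.07, and those of PANC1 were -0.24 and -0.13.

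YWHAZ, encoding 14-3-3ζ, a well studied partner of BAD, had HCT116 signals of 5789 and 5752 with DMSO at 12 h and 96 h, 6539 and 6947 under ICG-001, and 5753 and 5984 under C646. Its PANC1 signals were 5092 and 4538 with DMSO, 4936 and 4525 under ICG-001, and 4294 and 3902 under C646. ICG-001 gave the 2 highest columns in HCT116 and C646 the 2 lowest in PANC1, but no difference from DMSO exceeded 1.21-fold. The share of all genes with such an order was not counted.

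YWHAB, YWHAG and YWHAQ, which encode 14-3-3β, γ and θ, had no call at 1.5-fold in any comparison. YWHAB lay between 3063 and 4102 in HCT116 and between 3442 and 4311 in PANC1, with log2 changes against DMSO of -0.32 to 0.24. YWHAG lay between 1864 and 2231 in HCT116 and between 2129 and 2956 in PANC1, with log2 changes of -0.47 to 0.20, the lowest in PANC1 with C646 at 12 h. YWHAQ had the smallest ratio of highest to lowest signal of the 7 genes, 1.17 in HCT116 and 1.15 in PANC1, its signals running from 9736 to 11360 and from 14941 to 17127, and its log2 changes ran from -0.17 to 0.08.

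Setting ICG-001 against C646 at the same dose, time and line uses no DMSO column. Of 28 pairs of gene and comparison, 3 reached 1.5-fold, where 5.47% of pairs did so over all genes. SFN was 1.83-fold lower with ICG-001 than with C646 in HCT116 at 96 h and 1.95-fold higher in PANC1 at 12 h. YWHAH was 1.51-fold higher with ICG-001 in PANC1 at 96 h, and its log2 differences in the other 3 comparisons were 0.10, 0.49 and 0.34. YWHAZ was higher with ICG-001 in 4 of 4 comparisons by a log2 difference of 0.18 to 0.22. YWHAG was higher in 4 of 4 by 0.07 to 0.32 and YWHAB in 4 of 4 by 0.01 to 0.42. YWHAQ was lower in 4 of 4 by a log2 difference of -0.17 to -0.03. The share of all genes that kept the same sign in all 4 was not counted. The median absolute log2 difference of the genes tested was 0.11 to 0.15, and genes below the limit had an SD of 0.062 to 0.073. The smallest YWHAB and YWHAQ differences were inside that SD. The YWHAE differences were -0.21 and -0.20 in HCT116 at 12 h and 96 h, and 0.52 and -0.35 in PANC1. No interval can be put on any of these, so values under the threshold do not show that the compounds acted alike.

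**Figure D3:**
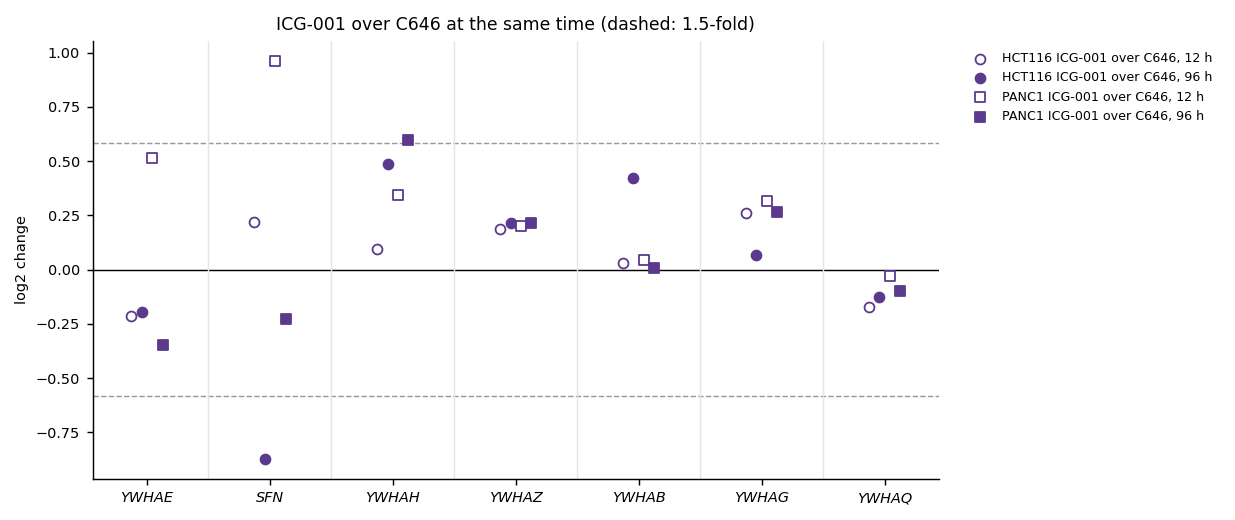
Log2 difference of ICG-001 over C646 at 10 μM for each 14-3-3 gene, with open points for 12 h, filled points for 96 h, circles for HCT116 and squares for PANC1; dashed lines mark 1.5-fold, and no error is known. SFN has a point beyond each line, YWHAH has 1 at 0.60, and the 4 YWHAZ points lie together at 0.18 to 0.22.

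Between 12 h and 96 h of the same treatment, 4 of 42 pairs reached 1.5-fold, against 3.78% over all genes. In PANC1 with DMSO alone, YWHAE was 2.03-fold lower at 96 h than at 12 h, where 0.332% of all genes were at least 1.5-fold lower. Both DMSO columns were also denominators of the comparisons that selected YWHAE, and a high DMSO signal favours selection, so this value too is a description. With ICG-001 in PANC1 it was 2.17-fold lower at 96 h, and with C646 1.19-fold lower. In HCT116 the log2 changes of YWHAE over time were -0.01 with DMSO, -0.12 with ICG-001 and -0.13 with C646. The remaining calls were SFN, 1.73-fold higher at 96 h in HCT116 with C646 and, for ICG-001 in PANC1, 1.73-fold lower.

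The PANC1 DMSO columns therefore matter for YWHAE. Taking the DMSO column of the other time point, an alternative chosen after the data had been seen, left YWHAE lower at least 1.5-fold in 6 of 8 comparisons. In PANC1 the log2 change at 12 h then became 0.01 with ICG-001 and -0.51 with C646, and at 96 h it became -2.13 and -1.78. In HCT116 the 4 values stayed between -1.07 and -0.72. SFN kept its 3 lower calls in PANC1 and its 1 higher call in HCT116 under that exchange. The share of all genes called under the exchange was not counted, and the shares given for comparisons at the same time do not apply to it. The YWHAE values come from the columns that selected it, so they too are a description.

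**Figure D4:**
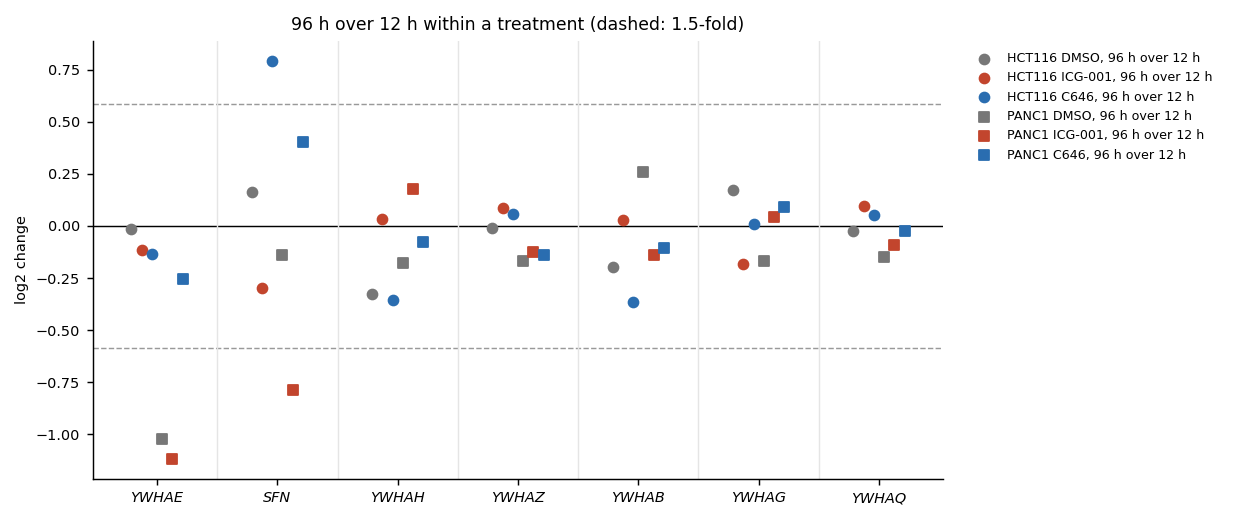
Log2 change of each 14-3-3 gene from 12 h to 96 h within a treatment, with circles for HCT116, squares for PANC1 and colours for the treatment; dashed lines mark 1.5-fold, and no error is known. YWHAE in PANC1 lies near -1 with DMSO and with ICG-001, and SFN has a point beyond each line.

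Genes with a pattern like that of YWHAE were ranked by Pearson's r over the 12 log2 signals, after subtraction of each line's mean, among 11775 genes above the limit everywhere. The 5 highest were KIAA0261 (now WAPL, which releases cohesin from chromatin) and RNF26 (a ubiquitin ligase of the endoplasmic reticulum) at 0.98, and SMARCC1 (a core subunit of SWI/SNF remodellers), C16orf56 (now CENPT, a kinetochore protein) and TNRC6A (a partner of Argonaute in microRNA silencing) at 0.97. All points come from the same 12 averaged columns, and the drug contrasts that chose YWHAE are part of them. Each of the 5 was lower than DMSO in 8 of 8 comparisons, but 4 of them reached 1.5-fold once and TNRC6A never. No other family member was close: r with YWHAE ran from -0.24 for YWHAH to 0.55 for YWHAQ.

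Rows matched by name to a pseudogene of a member, or to an antisense RNA, were near background. No sequences were compared, so other rows that might share sequence with a member were not looked for. Of the YWHAE pseudogenes, YWHAEP5 exceeded the limit in 0 of 12 columns and YWHAEP1 and YWHAEP7 in 1 each, as did YWHAH-AS1, the antisense RNA of YWHAH. The highest signal of these rows was 144. The nearest listed genes on either side of YWHAE on the chromosome included 3 that exceeded the limit in all 12 columns, and of their 24 pairs with the comparisons against DMSO 1 was lower and 2 were higher, where 2.47% and 3.4% of pairs were over all genes. CRK, an SH2 and SH3 adaptor, had log2 changes against DMSO of -0.09 to 0.34, and ABR, a regulator of small GTPases, of 0.09 to 0.60 with 2 higher calls. MYO1C, an unconventional myosin, ran from -0.75 to 0.06 with 1 lower call, and TUSC5 did not exceed the limit in any column.

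Partner and pathway genes were counted over the same 8 comparisons, from lists compiled with earlier results of these data known. Of 35 genes encoding 14-3-3 clients, 12 of 254 pairs were higher (4.72%) and 11 lower (4.33%), against 3.4% and 2.47% over all genes, and their median log2 change was -0.11 to -0.01 compared with -0.011 to 0.0049 for all genes. CRTC2, a CREB coactivator kept in the cytoplasm by 14-3-3, was lower in 3 and AKT1S1, an inhibitory mTORC1 subunit, in 1. On the other side, ARHGEF2, a microtubule-bound guanine nucleotide exchange factor, was higher in 4, and FOXO3, a transcription factor retained in the cytoplasm by 14-3-3, in 3. CRTC3, related to CRTC2, was higher in 1. The ARHGEF2 calls were all with ICG-001, with HCT116 log2 changes of 1.72 and 1.52 and PANC1 log2 changes of 1.01 and 0.85, whereas its C646 values were 0.07, 0.40, -0.01 and -0.11.

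Kinases that create 14-3-3 binding sites, 23 genes, had 1 higher (0.694%) and 2 lower (1.39%) of 144 pairs, with medians of -0.19 to -0.03. Both shares were below those over all genes, 3.4% higher and 2.47% lower. STK11, the kinase upstream of AMPK, had the lowest mean log2 change, -0.32, with no call, and the DNA damage kinase CHEK2 had 1 lower call. MARK2 followed, and SIK3, MARK3 and CHEK1 had the highest means, all without a call. The 15 phosphatase genes, whose products can remove such phosphates, had 1 higher (0.833%) and 9 lower (7.5%) of 120 pairs, against 3.4% and 2.47% over all genes. Their median was below 0 in 8 of 8 comparisons, at -0.30 to -0.11. The medians of the clients and of the kinases were also below 0 in 8 of 8. The median over all genes was -0.011 to 0.0049. PPP2R1A, the scaffold of protein phosphatase 2A, and its regulatory subunit PPP2R5D were each lower in 3 comparisons and PPP1CA, a catalytic subunit of phosphatase 1, in 1. The catalytic subunit PPP2CA and PPP2R5E had no call, and PPP2R2A was higher in 1.

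FOXO targets, 16 genes, had 9 higher (8.26%) and 11 lower (10.1%) of 109 pairs, against 3.4% and 2.47% over all genes, with medians of -0.51 to 0.08. All 11 lower calls were in HCT116, where 3 of 54 pairs were higher, and 6 of them were in the comparison of ICG-001 at 96 h, in which 13 of the genes were tested. In PANC1 6 of 55 pairs were higher and 0 lower. Over all genes, 206 to 874 were lower per HCT116 comparison and 58 to 617 per PANC1 comparison, of 16836 to 17633 tested. The highest of these counts, 874 of 17147, was that of ICG-001 at 96 h in HCT116. Higher genes numbered 320 to 878 in HCT116 and 376 to 699 in PANC1. Whether the lines differed was not tested. GADD45A, a gene induced by stress and DNA damage, was higher in 6 comparisons, up to a log2 change of 1.75 in PANC1 with ICG-001 at 96 h. CITED2, which itself binds CBP and p300, was lower in the 4 HCT116 comparisons, with log2 changes of -0.91 to -0.59, and had PANC1 values of -0.51 to -0.30 without a call. BNIP3 and KLHL24 were each lower in 2, while SESN1 and FBXO32 had none.

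**Figure D5:**
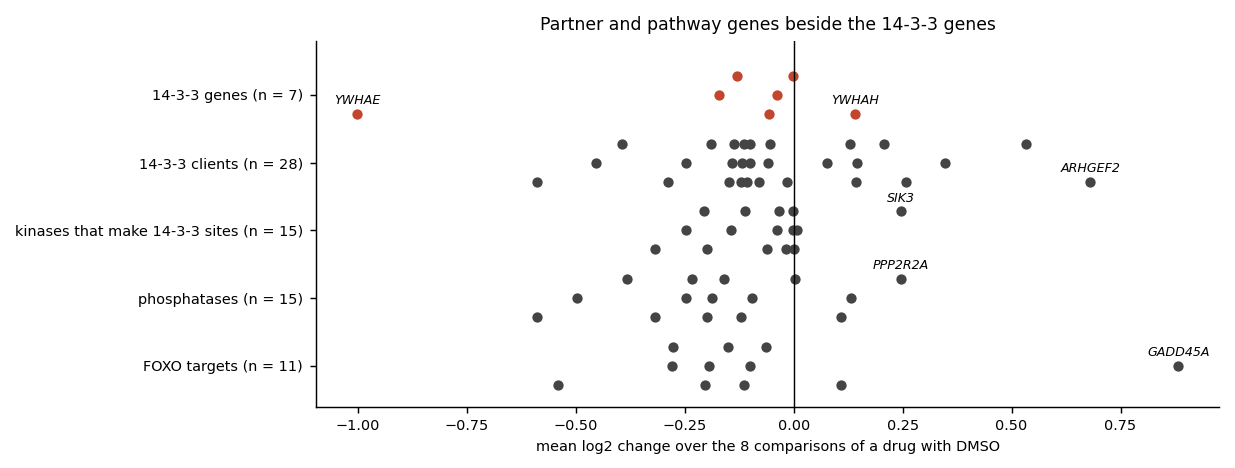
Mean log2 change over the 8 comparisons with DMSO for the 7 14-3-3 genes (red) and for listed partner and pathway genes above the limit in all 8 (grey), 1 point per gene, spread vertically for legibility; YWHAE and the highest gene of each row are named. YWHAE, which was selected on these 8 comparisons, lies below the lowest gene of each list, so its place is a description. The remaining 6 family members lie between -0.17 and 0.14.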

How the data were processed

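The authors hybridised labelled RNA to HumanHT-12 v4 arrays, exported gene signals from GenomeStudio (version not given in the sources used here) without background subtraction, and quantile normalized them. The deposited table holds linear signal intensity, 1 column per group, averaged by the authors over 2 or 3 arrays. Nothing in the sources used here states the probes behind a gene row. The number of arrays limits precision, and values of single arrays were not analysed here. No column lacked a sample. Current symbols came from a RefSeq gene table, which named 17755 of 34687 rows.

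Log2 ratios of 2 columns were computed in Python 3.11.15 (pandas 2.3.3, numpy 2.4.6, scipy 1.17.1) for genes above the detection limit in at least 1 of the 2 columns. The limit was the peak of a density of log2 signal (bandwidth 0.02) plus 2.33 SD of the values below it. Calls needed 1.5-fold. The detection limit and a separately written form of the 1.5-fold rule were tried on simulated columns with 2-fold changes only. The code that made the ratios was not itself tested. Alternatives were thresholds of 1.2-fold and 2-fold, no filter, a limit at 5 SD, normexp with an offset of 16 (limma 3.58.1, R 4.3.3) followed by quantile normalization, centring on the median, quantile normalization over 12 columns, and the other DMSO column.

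Genes named were the 7 members, their copies, the 2 nearest genes on either side of YWHAE, the genes inside and just outside the selection rule, the 5 most like YWHAE, and per list the 3 lowest and 3 highest by mean log2 change. Of the genes this rule names, 1 client is not reported here. Members and lists were chosen with earlier results of these data known.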

Additional observations from a re-analysis of the deposited data

How the results depend on the processing

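Each column is an average, so leaving out an array was not run. Lowering the threshold to 1.2-fold raised the higher calls against DMSO from 1 to 5, the calls between the drugs from 3 to 10 and those over time from 4 to 9. At 2-fold, YWHAE was lower in 4 of 8 comparisons, 5 calls were lower and 0 higher in all, 0 remained between the drugs and 2 over time. The other counts stayed within 1.5 times under every alternative run. Shares of all genes called at 1.2-fold and 2-fold were not counted, so the counts at those thresholds are not set against a background. Exchanging the DMSO columns, chosen after seeing the data, left 9 lower calls and 1 higher call, with no share over all genes counted.

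Of 126 single log2 values, no call was reversed. Background correction by normexp moved 18, by at most 0.21, and brought YWHAE between the drugs in PANC1 at 12 h to 0.59, past 1.5-fold. SFN in PANC1 with C646 at 96 h, at -0.59, came to -0.58 and lost its call after centring and after quantile normalization over all 12 columns.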
